A study of Homo sapiens with 8 samples.

Results

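Citron kinase (CIT), PRC1, anillin (ANLN), ECT2, RACGAP1 and CEP55 were followed through 8 two-colour expression arrays of human lung cancer cell lines. These 6 of the 22439 genes that could be named on the array were taken by name for their role in cytokinesis, through every probe whose RefSeq accession leads to them. They have 8 probes, 2 each for CIT and CEP55 and 1 for each of the others. Each array set RNA of treated cells, labelled with Cy5 (red), against RNA of control cells of the same line, labelled with Cy3 (green), and the log2 ratio of red over green is above 0 where the treated cells had more of the transcript. No array had the dyes exchanged, so that a difference between the dyes at a probe cannot be told apart from the treatment.

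The squamous cell carcinoma lines EBC-1 and SK-MES-1 received miR-150-3p, the passenger strand of the miR-150 duplex, on 1 array each. The small cell line SBC-3 received siDONSON-1, siDONSON-2 or siDONSON-3, which are different siRNAs against the replication factor DONSON, on 1 array each. The lung adenocarcinoma line A549 carried LOXL2, a lysyl oxidase gene, knocked down by CRISPR/Cas9 editing, on 3 arrays called GE1, GE2 and GE3, and whether these are clones or pools is not stated. The controls of the transfections are called both mock and untransfected in the labels, those of A549 are unedited cells, and controls of a line may be a single RNA. All arrays were on 1 slide, and nothing states that arrays of a group came from separate cultures, so p-values measure only the spread between these arrays, which may be technical. The methods give 1 duration of transfection for experiments other than the proliferation and luciferase assays, and do not name the arrays. They describe no DONSON or LOXL2 experiment. The study asked which genes miR-150-3p acts on, and it picked CIT for a list of candidates partly from the EBC-1 values used here, so its EBC-1 value is not independent evidence of its direction.

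Cytokinesis separates daughter cells after the chromosomes have parted. PRC1 bundles the antiparallel microtubules of the spindle midzone, where RACGAP1 with the kinesin KIF23 forms centralspindlin, which recruits the guanine nucleotide exchange factor ECT2 to the cell equator. Anillin links actin, myosin and septins at the cleavage furrow, citron kinase keeps the midbody in order, and CEP55 brings the ESCRT proteins that cut the last bridge. Transcripts of these genes are known to peak in the G2 and M phases, and many such genes carry a CHR element (TTTGAA) close to the transcription start, often with a CCAAT box upstream.

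Promoter stretches are shown because the genes moved together on 1 array. RefSeq promoter windows of GRCh38.p14 held 5 of the 6 genes, and each line below gives 100 bases before and 50 bases after the annotated start, 5′ to 3′ on the gene's strand, with the motifs TTTGAA and CCAAT in capitals, or their reverse complements where the opposite strand holds the motif. RACGAP1 was not in the table, and of the 2 windows of ECT2 the upstream one is shown.
CIT, chr12:119877271-119877420, minus strand: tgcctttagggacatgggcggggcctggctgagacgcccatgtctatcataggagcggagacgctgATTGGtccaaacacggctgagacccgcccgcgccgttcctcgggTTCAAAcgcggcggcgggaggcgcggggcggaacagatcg
PRC1, chr15:90994486-90994635, minus strand: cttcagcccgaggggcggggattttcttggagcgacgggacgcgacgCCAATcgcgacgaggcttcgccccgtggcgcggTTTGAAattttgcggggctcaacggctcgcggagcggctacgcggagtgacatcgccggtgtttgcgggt
ANLN, chr7:36389762-36389911, plus strand: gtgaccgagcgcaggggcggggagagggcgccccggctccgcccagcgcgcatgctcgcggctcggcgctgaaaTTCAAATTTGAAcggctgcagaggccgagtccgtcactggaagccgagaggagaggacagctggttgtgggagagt
ECT2, chr3:172750626-172750775, plus strand: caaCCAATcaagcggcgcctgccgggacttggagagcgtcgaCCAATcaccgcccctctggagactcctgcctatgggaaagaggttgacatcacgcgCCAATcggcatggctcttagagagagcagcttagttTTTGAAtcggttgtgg
CEP55, chr10:93496512-93496661, plus strand: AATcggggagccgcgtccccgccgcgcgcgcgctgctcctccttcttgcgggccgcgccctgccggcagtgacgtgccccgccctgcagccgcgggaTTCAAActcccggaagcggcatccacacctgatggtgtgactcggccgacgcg
The CEP55 stretch opens with the last bases of a CCAAT that starts 102 bases before the transcription start. ANLN and PRC1 both have a TTTGAA that starts 20 bases before the transcription start. ANLN has a second copy, on the opposite strand, 26 bases before it. CEP55 has its nearest copy 3 bases before the start, and CIT and ECT2 have theirs 11 and 35 bases into the transcript. Over the 300-base windows of 250 bases before to 50 after the start, 5 of 5 genes held TTTGAA on either strand. The share was 15.2% of 35116 such windows of all genes, counted by window and not by gene. Other cytokinesis genes held it too, 5 of 6 of the midzone and centralspindlin and 3 of 4 of the chromosomal passenger complex. It was in 0 of 7 septins, 1 of 13 ESCRT genes and 1 of 6 abscission regulators. CCAAT was in 4 of 5, all but ANLN, against 34.6% of all windows. It was in 6 of 6 midzone and 4 of 4 passenger complex genes, 4 of 7 septins, 4 of 13 ESCRT genes and 2 of 6 abscission regulators. Of the other motifs searched on both strands, TTCCCGC was in 1 of 5 genes (6.55% of all windows), TTGGCGC in 1 (3.04%) and TTCGAA in 0 (1.45%). The TTGGCGC of ECT2, read on the opposite strand, overlaps its last CCAAT by 4 bases. These matches are descriptions of letters, not of binding.

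The DONSON and LOXL2 ratios fit the labels of their arrays. DONSON was 4.43, 3.46 and 4.32 times lower on the siDONSON-1, siDONSON-2 and siDONSON-3 arrays, and LOXL2 was 5.61, 6.36 and 6.01 times lower on GE1, GE2 and GE3. In the control channels the marker lists separated the lines poorly. Of 5 squamous markers, EBC-1 had 1 above background (SOX2), SK-MES-1 had 2 (SOX2 and TP63), SBC-3 had the same 2 and A549 had 1 (SOX2), while KRT5, KRT6A and DSG3 were not well above background in either squamous line. Of 6 neuroendocrine markers SBC-3 had 3 (NEUROD1, SYP and CHGA) and A549 had 1 (CHGA), against 0 in both squamous lines. Of 4 adenocarcinoma markers A549, EBC-1 and SK-MES-1 all had the same 2 (KRT7 and NAPSA) and SBC-3 had 1 (KRT7). Of 3 markers of other cell types, PTPRC and COL1A1, which mark blood and stromal cells, were above background in all 4 lines. The third, PECAM1, was not well above background in any line. Between 41.1% and 46.4% of spots passed the background limit in green.

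On the EBC-1 array all 6 genes were lower in cells with miR-150-3p, by 1.46-fold for ECT2 to 5.62-fold for the bright probe of CIT, and 5 of 6 had a log2 ratio below -1, where 6.04% of the 14759 genes measured on that array lay. On the SK-MES-1 array 0 of 6 were below -1 (1.27% of 16176 genes), and CIT was the gene that stood lowest there as well, 1.44-fold below its control at the bright probe. The software that read the arrays gives each ratio an error, and all 6 genes lay outside its 95% limits on EBC-1, against CIT alone on SK-MES-1. The share of all genes outside these limits was not counted on either array, so the counts are not a result about these genes. With normexp background correction and loess in place of the processed intensities, 3 of 6 were below -1 on EBC-1 (CIT, PRC1 and RACGAP1). The share of all genes below -1 was not counted under that setting. The software limits describe noise within an array, not the spread between cultures, of which there is 1 per squamous line.

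**Figure D1:**
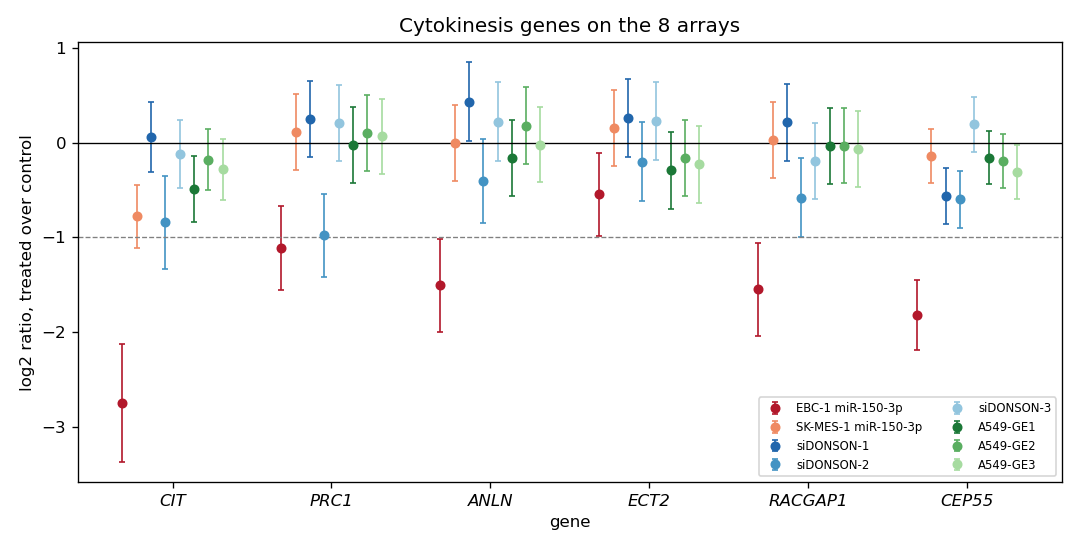
Log2 ratio of treated over control (vertical axis) for the 6 genes on each of the 8 arrays, with bars of the 95% limits from the software error and a dashed line at -1. The EBC-1 points are the lowest for every gene and lie from -2.75 for CIT to -0.55 for ECT2, while siDONSON-2 lies below siDONSON-1 and siDONSON-3 for every gene.

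Citron kinase had log2 ratios of -2.75 on EBC-1 and -0.78 on SK-MES-1. With the siRNAs they were 0.06 (siDONSON-1), -0.84 (siDONSON-2) and -0.12 (siDONSON-3), and in edited A549 cells -0.49, -0.18 and -0.28 on GE1 to GE3. Both miR-150-3p arrays were therefore negative, yet SK-MES-1 lay within the range of the siDONSON arrays. These are means over both probes, and the EBC-1 value takes in a probe that was not well above background in treated cells. With each gene taken at its brightest probe, CIT was at -2.49 on EBC-1 and 0.266% of genes were lower, and it was at -0.53 on SK-MES-1, where 5.95% were lower. The mean over both miR-150-3p arrays was -1.76 ± 0.41 (SE of the limma fit, n = 2). That fit takes its spread from the arrays of all treatments, so this SE does not measure the spread between these 2 arrays. The mean is a 3.39-fold lower level (2.85-fold at the bright probe), with an adjusted p of 0.0496 by limma.

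This value sits at the threshold of 0.05, and the call did not hold up across settings. The adjusted p depended on which genes entered the estimate of the spread. Of 4 such versions of the limma fit, all run and compared before 1 was kept, the one printed above was the only one to call CIT, and the others gave 0.0602, 0.0631 and 0.0512. With normexp and loess the mean was -0.74 and the EBC-1 value -1.11, both taken over the 2 probes. Under that setting the bright probe was at -1.96 on EBC-1 and -0.51 on SK-MES-1, and the dim probe at -0.27 and -0.21. Without the EBC-1 array the mean was -0.78 with an adjusted p of 0.34 by limma. Without any single siDONSON or A549 array, which add only to the estimate of the spread, the adjusted p was 0.0521 to 0.0956 by limma.

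The 2 CIT probes differ in brightness, and both showed the same order of arrays at the low end. The bright probe had processed intensities of 4824 in control and 857.9 in treated EBC-1 cells, and of 4892 and 3392 in SK-MES-1 cells. Its log2 ratios were -2.49 and -0.53 on these arrays, 0.12, -0.62 and 0.02 on siDONSON-1 to siDONSON-3, and -0.31, -0.26 and -0.20 on GE1 to GE3. The dim probe had 100.1 in control and 12.49 in treated EBC-1 cells, and the treated channel was not well above background there. Taken at the lowest red intensity counted as above background on that array, 26.96, this probe would be 3.71-fold lower. That intensity is not a detection limit for this spot, so the value is no bound. On siDONSON-2 the treated channel of the dim probe was also not well above background (27.2, against 56.63 in the control). The lowest red intensity counted as above background there was 22.84. Since the mean over both probes takes the dim probe at its measured log2 ratio of -3.002, the bright probe gives the firmer size, and with it alone the mean over both squamous lines was -1.51 (adjusted p = 0.0589 by limma).

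**Figure D2:**
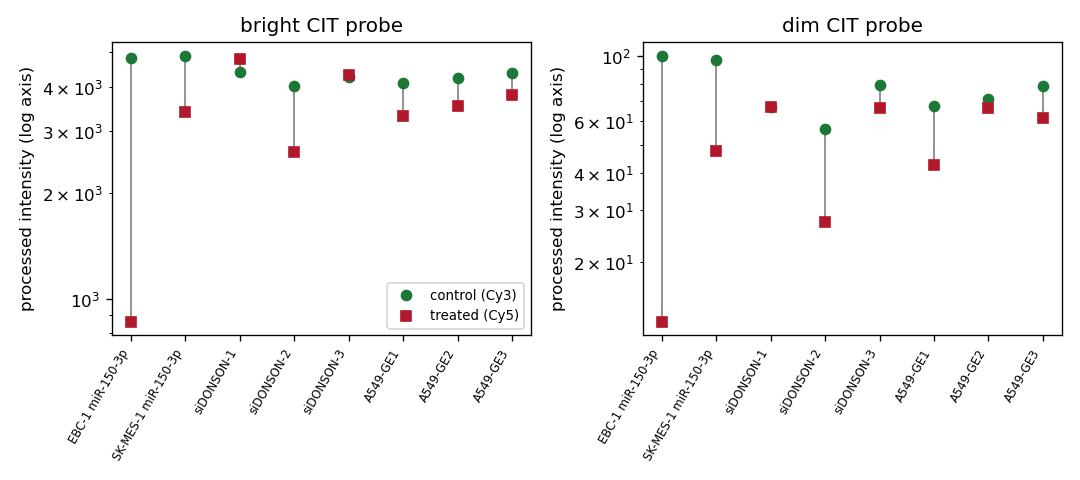
Processed intensity (log axis) of the bright and the dim CIT probe on each array, in the control channel (green circles) and the treated channel (red squares). The control intensities of the bright probe stay within 4009 to 4892 on all arrays, and the largest gap to the treated channel is on the EBC-1 array for both probes.

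CEP55, the midbody protein that recruits the ESCRT machinery, was the second lowest of the genes on EBC-1. Its log2 ratios were -1.82 on EBC-1, -0.14 on SK-MES-1, -0.56, -0.60 and 0.19 on siDONSON-1 to siDONSON-3, and -0.16, -0.19 and -0.31 on GE1 to GE3. EBC-1 stood apart from the other 7 arrays, which overlapped between treatments. The 2 CEP55 probes gave -1.84 and -1.81 on EBC-1. The mean over both miR-150-3p arrays was -0.98 ± 0.35 (SE of the limma fit over all treatments, n = 2) and did not pass (adjusted p = 0.117 by limma).

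RACGAP1, the GTPase-activating subunit of centralspindlin, had log2 ratios of -1.55 on EBC-1 and 0.02 on SK-MES-1. They were 0.21, -0.58 and -0.19 on siDONSON-1 to siDONSON-3 and -0.04, -0.03 and -0.07 on GE1 to GE3. The A549 arrays had an SD of 0.02 (n = 3), the smallest of the 6 genes. A pseudogene, RACGAP1P1, resembles this gene closely, and whether it adds signal to the probe was not tested.

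Anillin had log2 ratios of -1.51 on EBC-1, 0.00 on SK-MES-1, 0.43, -0.41 and 0.22 on siDONSON-1 to siDONSON-3, and -0.16, 0.18 and -0.02 on GE1 to GE3. Its processed intensity fell from 571.6 in control to 201.3 in treated EBC-1 cells and was 818.5 and 817.7 in SK-MES-1 cells. EBC-1 had the lowest ANLN ratio of the 8 arrays, and the other 7 overlapped between treatments.

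PRC1, the midzone crosslinker, had log2 ratios of -1.11 on EBC-1, 0.11 on SK-MES-1, 0.25, -0.98 and 0.21 on siDONSON-1 to siDONSON-3, and -0.03, 0.10 and 0.06 on GE1 to GE3. Its siDONSON-2 value was close to its EBC-1 value, while the remaining 6 arrays lay within -0.03 to 0.25.

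ECT2, the exchange factor at the cell equator, moved least on EBC-1, with log2 ratios of -0.55 there, 0.15 on SK-MES-1, 0.26, -0.20 and 0.23 on siDONSON-1 to siDONSON-3, and -0.29, -0.16 and -0.23 on GE1 to GE3. On EBC-1 15% of the genes had a lower ratio than ECT2. It was the highest of the 6 genes on both squamous arrays.

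Over both miR-150-3p arrays limma called 1 of 6 genes lower, CIT, and 2.9% of the 14229 genes tested were called lower. The means of the other 5 genes lay from -0.98 for CEP55 to -0.20 for ECT2, with adjusted p-values of 0.117 to 0.497 by limma. The 2 arrays are different cell lines, so that their spread holds the difference between the lines. With each line given its own mean, and the spread taken from the siDONSON and A549 arrays, the difference of EBC-1 minus SK-MES-1 in log2 ratio was -1.97 for CIT, -1.69 for CEP55, -1.57 for RACGAP1, -1.50 for ANLN, -1.22 for PRC1 and -0.70 for ECT2. In this comparison 0 of 6 passed (adjusted p from 0.0684 for CIT to 0.334 for PRC1 by limma), and 1.96% of 12862 genes were called lower in EBC-1. An unadjusted limma p under 0.05 was found for 5 of 6, and the share of all genes at that limit was not counted. Each line has 1 array here, assumed to vary like the siDONSON and A549 arrays, so that these p-values do not measure the spread within either line.

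With the siRNAs against DONSON, limma called 0 of 6 genes in either direction, while 3.21% of 14453 genes were called lower and 4.01% higher. An unadjusted limma p under 0.05 was found for 0 of 6, against 3771 of the 14453 genes. The means over 3 arrays lay from -0.32 ± 0.45 (SD, n = 3) for CEP55 to 0.10 ± 0.26 for ECT2. The arrays did not behave alike. On siDONSON-2 all 6 genes were below 0, from -0.98 for PRC1 to -0.20 for ECT2, and 4 of 6 lay outside the software limits. The share of all genes outside these limits was not counted. On siDONSON-1 CEP55 alone was below 0, and on siDONSON-3 CIT and RACGAP1 were. The siRNAs differ in sequence and each has 1 array, so siRNA and array cannot be told apart.

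In A549 cells with LOXL2 edited, 0 of 6 genes were called, against 6.77% of 15531 genes lower and 7.58% higher. An unadjusted limma p under 0.05 was found for 0 of 6, against 4817 of the 15531 genes. Means ranged from -0.32 ± 0.16 (SD, n = 3) for CIT to 0.04 ± 0.07 for PRC1. CIT, ECT2, RACGAP1 and CEP55 were below 0 on all 3 arrays. When the A549 arrays were fitted alone, CIT, ECT2 and CEP55 passed, with means of -0.32, -0.23 and -0.22 and adjusted p-values of 0.0492, 0.0355 and 0.0443 by limma. That fit called 18.4% of all 15531 genes lower. The epithelial markers EPCAM, KRT18 and KRT8 were all called lower on these arrays (3 of 3), with mean log2 ratios of -2.43, -0.74 and -0.53, and their part in the values of the cytokinesis genes was not tested.

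The differences between treatments were tested for all 6 genes in 3 pairs, and 0 of 18 passed. For CIT the log2 ratio with miR-150-3p minus that with siDONSON was -1.46 ± 0.51 (SE) (adjusted p = 0.15 by limma, 1.65% of 12862 genes lower) and minus that of edited A549 cells -1.44 ± 0.51 (adjusted p = 0.156, 1.82% lower). Between siDONSON and LOXL2 editing the difference for CIT was 0.02 ± 0.46 (3.37% of genes lower in siDONSON). Without SK-MES-1, so that EBC-1 alone stood for miR-150-3p and was assumed to vary like the other groups, 8 of these 18 differences passed. These were CIT, ANLN, RACGAP1 and CEP55 against siDONSON, where 9.37% of 12968 genes were called lower, and the same 4 genes against LOXL2 editing, where 8.51% were.

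Other genes of cytokinesis were listed by role on the EBC-1 array, where 6.04% of the 14759 genes measured were below -1. All 6 of 6 midzone and centralspindlin genes were below -1, with a median of -1.44, among them KIF23 (-1.44), the kinesin of centralspindlin, and KIF20A (-1.44), which carries the passenger complex to the midzone. All 4 of 4 measured genes of the chromosomal passenger complex were below -1, with a median of -1.49 and AURKB, its kinase, at -1.45. None of 7 septins, 16 abscission ESCRT genes or 6 measured abscission regulators was below -1 (0 of each), with PDCD6IP (ALIX) at -0.16 and CHMP4B at -0.18. In lists of this size 0 is close to the share of all genes, so these counts do not set the lists apart from all genes. The median of all genes on that array was 0.05.

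The same lists on SK-MES-1 had 0 genes below -1, with medians of -0.12 for the midzone and -0.17 for the passenger complex. Of all genes 1.27% of 16176 lay below -1 on that array, against 6.04% of 14759 on EBC-1. The 6 proliferation markers MKI67, TOP2A, CCNB1, CDK1, PCNA and MCM2 were all below -1 on EBC-1 (6 of 6, median -2.07) and 0 of 6 were on SK-MES-1 (median -0.22). On siDONSON-2 their median was -0.37, against 0.15 and -0.07 on siDONSON-1 and siDONSON-3. The cytokinesis genes moved with the proliferation markers on these arrays, whose part in the result was not tested, and fewer cells in G2 and M phase and less transcript per cell cannot be told apart in RNA of whole cultures.

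**Figure D3:**
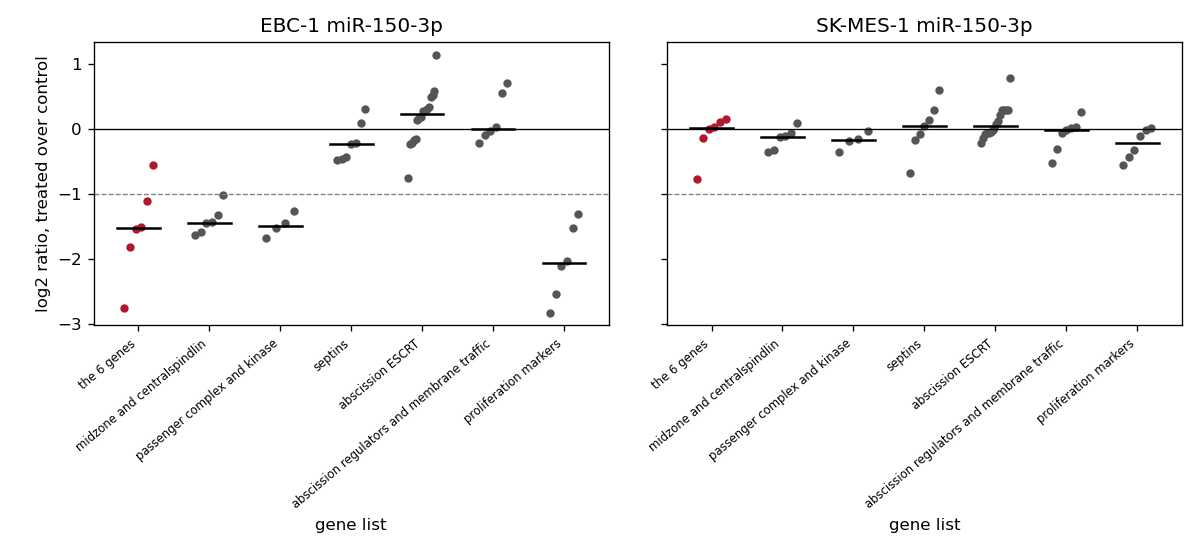
Log2 ratio of treated over control (vertical axis) on the EBC-1 and SK-MES-1 arrays, 1 point per gene, for the 6 genes (red), 5 further lists of cytokinesis genes by role and the proliferation markers, with a bar at the median of each list and a dashed line at -1. On EBC-1 the medians of the midzone and passenger lists are -1.44 and -1.49 and that of the ESCRT list is 0.23, and on SK-MES-1 no point of any list lies below -1.

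Over whole treatments few genes of these lists passed. In miR-150-3p cells 1 of the 39 tested was called, the ESCRT gene CHMP1B, which was higher by 0.96 (adjusted p = 0.042 by limma, 2.47% of all genes called higher). In siDONSON cells 4 of 39 were called higher, where 4.01% of all genes were, and 0 lower. These were CHMP1B (0.80), CHMP2B (0.76) and IST1 (0.61) of the ESCRT list and RAB11FIP3 (0.57) of the membrane traffic list. In edited A549 cells 0 of 39 were called higher and 4 lower, where 7.58% and 6.77% of all genes were. The lower genes were the microtubule-severing ATPase SPAST (-0.64), the small GTPase RAB35 (-0.55), CHMP2B (-0.51) and MITD1 (-0.31).

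The genes whose 8 ratios were most like the mean of the 6, by the root mean square difference over 8 arrays among 12856 genes, were CDCA3 (0.10), KIF2C (0.10), KIF23 (0.11), KIFC1 (0.11) and KIF14 (0.12), where the median gene was at 0.69. Those most like CIT were PLK4 (0.19), CDK1 (0.22), UHRF1 (0.26), GEN1 (0.32) and ZNF519 (0.32). Within the 6 genes RACGAP1 was closest to the mean of the other 5 (0.16) and CIT the farthest (0.62). These points share arrays, and EBC-1 carries most of the range.

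The control channel gives the level of each probe in the untreated lines, as log2 intensity relative to the 75th percentile of the array, and levels are compared within a probe only. CEP55 was highest in A549 and lowest in SBC-3. Its brighter probe was at 4.40 ± 0.05 (SD, n = 3) in A549, 2.72 in both EBC-1 and SK-MES-1 and 1.64 ± 0.07 (n = 3) in SBC-3, a 6.75-fold range. Its dimmer probe gave 3.02 ± 0.06, 0.23 ± 0.07, 1.38 and 1.51 in A549, SBC-3, EBC-1 and SK-MES-1. EBC-1 and SK-MES-1 had the same printed level at the brighter probe, and their order at the dimmer one rests on 1 array each.

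ECT2 was also highest in A549, at 2.41 ± 0.04 (SD, n = 3), with 0.66 in SK-MES-1, 0.33 in EBC-1 and 0.26 ± 0.03 in SBC-3. The order of EBC-1 and SBC-3 turned when the 75th percentile was taken over detected probes only. PRC1 stood at 6.06 ± 0.01 in A549 and 5.83 in SK-MES-1, and at 4.67 and 4.44 ± 0.03 in EBC-1 and SBC-3, of which the last 2 changed order under both other scalings. ANLN was at 1.98 in SK-MES-1, 1.90 ± 0.06 in A549, 1.38 in EBC-1 and 0.13 ± 0.19 in SBC-3, the lowest under all 3 scalings.

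CIT and RACGAP1 varied least between the lines. The bright CIT probe was at 4.56 in SK-MES-1, 4.46 in EBC-1, 4.28 ± 0.03 in A549 and 4.24 ± 0.02 in SBC-3, a 1.25-fold range, and RACGAP1 was at 3.36 ± 0.08 in A549, 3.22 ± 0.03 in SBC-3, 3.05 in SK-MES-1 and 3.01 in EBC-1, a 1.28-fold range. The difference between A549 and SBC-3 changed sign with the scaling for RACGAP1 (0.15, or -0.09 with quantile scaling and -0.10 with detected probes only). For the bright CIT probe it was 0.04, or -0.23 and -0.21 in the same order. The dim CIT probe had 0.15, or 0.24 and -0.10. These lines therefore have no settled order for CIT and RACGAP1. EBC-1 and SK-MES-1 controls had similar CIT levels, 4.46 and 4.56 at the bright probe, although its log2 ratios after miR-150-3p were -2.49 and -0.53.

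**Figure D4:**
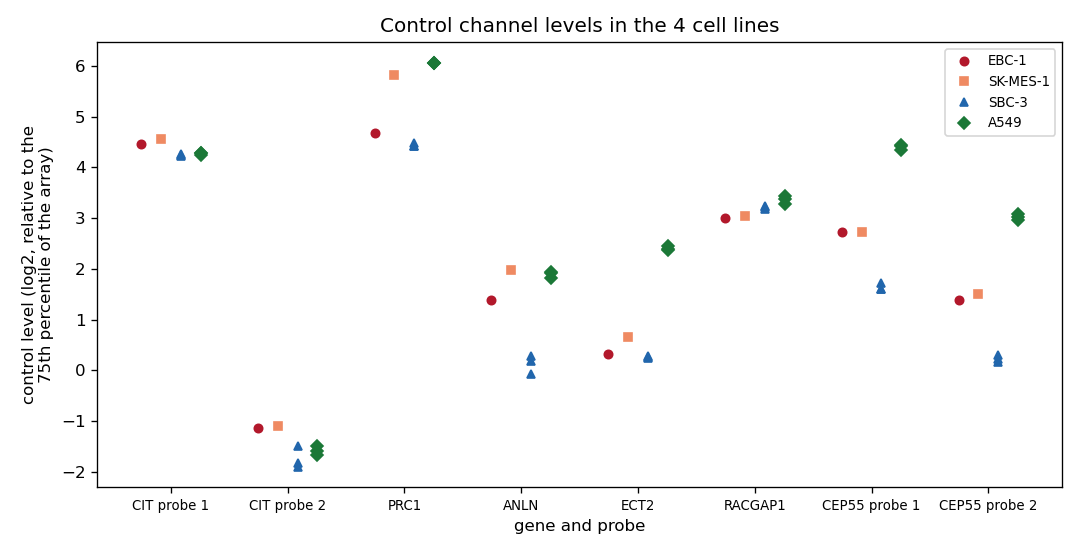
Level of each probe in the control channel (vertical axis, log2 relative to the 75th percentile of the array) in EBC-1 and SK-MES-1 (1 array each) and SBC-3 and A549 (3 arrays each, 1 point per array). A549 lies well above SBC-3 for PRC1, ANLN, ECT2 and both CEP55 probes, and the lines lie close together for RACGAP1 and the bright CIT probe.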

How the data were processed

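Total RNA of treated (Cy5) and control (Cy3) cells was hybridized on 8 Agilent arrays. The authors deposited scanner output of Feature Extraction 12.1.1.1 with intensity values of both channels, which the software had background-subtracted, detrended and dye-normalized, and the deposited log10 ratio with its error, a score used here for the 95% limits. The deposited series table repeats these log10 ratios. Log2 ratios were computed from the deposited processed intensities. Control spots and outlier-flagged spots were left out, spots of a probe were averaged, a probe counted on an array if well above background in at least 1 channel, and a gene is the mean of its counted probes. Of 50096 accessions on the array 24782 matched the RefSeq table of GRCh38.p14, which names 22439 genes. The array design names an older build, and only names and promoter sequences were taken from that table. Median software errors of a gene's log2 ratio were 0.207 to 0.211, and precision is limited by there being 8 arrays.

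Groups came from the labels. limma 3.58.1 in R 4.3.3 fitted all 8 arrays with 1 mean per treatment, tested against 0, with Benjamini-Hochberg adjustment over all genes with a value on every array of the treatment and a threshold of 0.05. This fit was run in 4 versions, which differ in the genes that enter the estimate of the spread: the genes complete for the treatment tested, the genes complete for any treatment, all genes, and the first with a trend on the mean log2 ratio. The first was kept after their results, CIT's among them, had been seen, because an earlier processing of these data used it, and the other 3 were added as alternatives after seeing the data. Differences used genes with a value on all 8 arrays. Single arrays were described against a log2 ratio of -1. Control levels were log2 green intensity minus the array's 75th percentile.

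The 6 genes and all lists were chosen with earlier results of these data known. Named genes were the 6 genes, a preset handful of partners (KIF23, AURKB, KIF20A, PDCD6IP and CHMP4B), listed genes that passed a test, the targeted genes, the proliferation markers and the 5 nearest by root mean square difference. PLK1 was not analysed here, and 1 further list of genes is not reported here. Alternatives were normexp (offset 50) with loess, median centring, other filters and probe rules, the deposited table, each treatment alone, each treatment against the other arrays, each array left out, and other scalings of the green channel, of which the percentile over detected probes was added after seeing the data. The normexp alternative used median spot signals. The fit was checked on simulated data. Python 3.11.15 and pandas 2.3.3 were used.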

Additional observations from a re-analysis of the deposited data

How the results depend on the processing

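No paired analysis was possible because replicate numbers name different siRNAs, edited samples or cell lines, and each treated RNA was set against its control within an array. For miR-150-3p, CIT was called in the fit reported and with normexp and loess, median centring, both channels above background, probes counted on all 8 arrays and the deposited table (adjusted p = 0.0308 to 0.0496 by limma), but normexp and loess took its mean from -1.76 to -0.74. It was not called, leaving 0 of 6 genes, with no filter on dim probes (0.0542), the brightest probe (0.0589), own arrays only (0.356), against the other arrays (0.134), or the 3 other estimates of the spread, over genes of any treatment (0.0602), over all genes (0.0631) and with a trend (0.0512). Leaving out 1 array at a time gave 0 to 4 of 6 genes, the 4 without SK-MES-1 being CIT, ANLN, RACGAP1 and CEP55. The fit without SK-MES-1 has only 1 miR-150-3p array and cannot measure the spread within that treatment. Among all genes, too, it called more than any other fit of miR-150-3p with 1 array left out. The 4 genes are therefore not a result about cytokinesis genes. CIT's mean with 1 array left out ranged from -2.75 to -0.78. Its mean of -0.74 with normexp and loess is over both probes, and the bright probe alone was at -1.96 on EBC-1 and -0.51 on SK-MES-1.

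Over all genes the miR-150-3p count of 765 became 1535 with normexp and loess, 198 with no filter, 0 on own arrays only (limma, with 1944 at an unadjusted p under 0.05), 224 against the other arrays, 450 with the spread over genes of any treatment and 369 over all genes, and 1 to 2972 with 1 array left out. The siDONSON count of 1043 became 2897 with no filter and 26 on own arrays only, and 97 to 1409 with 1 array left out. The LOXL2 count of 2229 became 5375 with no filter, 5873 on own arrays only and 820 against the other arrays, and 470 to 2889 with 1 array left out. The share of lower genes among those called rose from 44.5% to 54.6% for siDONSON with median centring. On own arrays only, 3 of 6 genes were called for LOXL2 editing. Differences between treatments called 0 of 18, and 0 to 8 with 1 array left out. The EBC-1 minus SK-MES-1 difference of CIT, -1.97 in the fit reported, was -1.71 with both channels above background and -1.96 with the brightest probe. In both of these settings CIT, alone of the 6 genes, crossed the threshold. With 1 array per line and a spread borrowed from other arrays, the crossing does not measure the spread within either line. On single arrays, 3 genes were below -1 on EBC-1 with normexp and loess, and 1 on siDONSON-2 with median centring. Shares of all genes below -1 were not counted under these settings.

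Against the other arrays, signs turned for siDONSON in CIT (0.59), RACGAP1 (0.15) and CEP55 (0.20) and for LOXL2 editing in CIT (0.57), ANLN (0.25), RACGAP1 (0.37) and CEP55 (0.36), a setting in which the EBC-1 array enters the comparison group. With normexp and loess, ANLN (0.011) and RACGAP1 (0.0089) turned for LOXL2 editing. With 1 array left out, signs turned for miR-150-3p without EBC-1 in PRC1 (range -1.11 to 0.11), ECT2 (-0.55 to 0.15) and RACGAP1 (-1.55 to 0.024), for siDONSON in PRC1 (-0.38 to 0.23) and RACGAP1 (-0.39 to 0.0104) without siDONSON-2 and ANLN (-0.092 to 0.33) without siDONSON-1, and for LOXL2 editing in ANLN without GE1 or GE3 (-0.0903 to 0.079). None of these turned values was called. Of 216 gene values under settings other than left-out arrays, 197 kept direction and side of the threshold. This count does not measure robustness, because under many of the settings the direction could not change. With no filter on dim probes, probes counted on every array or the deposited table, these genes had the same ratios as in the fit reported. Own arrays only and the other estimates of the spread leave the means as they are. The control-level difference between A549 and SBC-3 with quantile scaling was 1.33 for PRC1, 2.09 for ECT2, 2.68 for CEP55 and -0.086 for RACGAP1. With the percentile over detected probes it was 1.37 for PRC1, 1.52 for ANLN, 1.89 for ECT2, 2.52 for CEP55, -0.10 for RACGAP1 and -0.16 for CIT. The CIT and CEP55 values here are means over both probes of the gene.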
